A study of Mus musculus with 4 samples.

Results

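Interferon response genes are the sensors, signalling proteins and antiviral effectors that cells make when interferon reaches them, or that prepare them to answer a virus. The group followed here was a list of 44 gene symbols: 4 sensors of viral nucleic acid, 2 receptor chains, 7 transcription factors, 25 antiviral effectors and 6 regulators that act through ubiquitin, its relatives or ADP-ribose. Each gene took its probe set with the highest mean, and only probe sets with a single gene symbol were used. That gave values for 41 of the 44 genes among 19938 genes in all. Isg15 and Gbp2 were left out because their probe sets carry several symbols, and Ifi44 had no probe set under that symbol.

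The values came from 4 Affymetrix gene arrays of cultured C57BL/6 mouse cells, 1 array per group. The groups were embryonic stem (ES) cells, osteoblasts freed by enzyme digestion from the skull vaults of newborn mice, and marrow mesenchymal stem cells (MSC) cultured in the absence or presence of bFGF, a fibroblast growth factor, at 1 ng/ml. The labels name no genetic change for any group and do not state the age of the marrow donors or the passage. The MSC were whole marrow cells flushed from thigh and shin bones that stuck to plastic, and the labels name no sorting step. The osteoblasts pooled the last digestion steps and grew in a different medium from the MSC, so tissue of origin and medium differ together between those groups. Age may differ as well. The series was set up to compare MSC with and without bFGF.

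As background, double-stranded viral RNA in the cytoplasm is detected by the helicases of the RIG-I family. They signal through the mitochondrial protein MAVS and the kinase TBK1 to the transcription factors IRF3 and IRF7, which switch on type I interferon genes. Secreted interferon binds its receptor and activates, through the kinases JAK1 and TYK2, a complex that holds STAT2 and IRF9. This complex binds the interferon-stimulated response element (ISRE) in the promoters of antiviral genes. Its targets include the RNA sensors and IRF7 themselves. Pluripotent stem cells are known to answer interferon weakly.

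With 1 array per group there was no replicate, no SD and no test between groups, and every difference below compares arrays and not conditions. Levels are deposited log2 values, differences are written as "first minus second", 4 levels in a row are those of ES cells, osteoblasts, MSC without bFGF and MSC with bFGF, and the threshold for counting a gene was 2-fold, which is 1 on the log2 scale. To be counted, a gene also had to exceed a floor on the brighter array of the pair. That floor was the array's median over probe sets with 1 symbol, at 6.46 (ES cells and osteoblasts), 6.29 (MSC without bFGF) and 6.32 (MSC with bFGF). Of the 41 genes 22 lay above the floor on all 4 arrays and 38 on at least 1, the latter beside 11678 of all 19938 genes. Mx1, Mx2 and Cmpk2 lay under it on all 4. Between probe sets of the same gene, the SD of the difference between the MSC arrays was 0.29. Genes of odour and pheromone receptors, expected to be largely silent, spanned -0.97 to 0.67 in the central 95% of 1190 genes, but only 12 of them lay above the floor, so they describe noise at low levels.

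The labelled cell types were set against marker lists first. By its definition the floor is exceeded by about 50% of probe sets with 1 symbol on every array. A count near that share therefore does not show that a cell type was present. Of 10 ES cell markers 7 lay above the floor in ES cells and 0, 0 and 1 in osteoblasts, MSC without and MSC with bFGF. Only 2 of 7 osteoblast markers lay above it in osteoblasts, Col1a1 and Dlx5, while the defining osteoblast genes Sp7, Alpl and Ibsp did not. Of 14 stromal markers 10, 12, 7 and 9 lay above the floor in ES cells, osteoblasts, MSC without and MSC with bFGF. Of 9 dendritic cell markers 2, 1, 2 and 2 lay above it, not the same pair on the MSC arrays: Itgax, an integrin gene of dendritic cells and some macrophages, stood at 4.64, 5.40, 5.09 and 7.82, above the floor only in MSC with bFGF. Its part in the results was not tested. Of 10 endothelial markers 2, 2, 1 and 0 lay above the floor, and of the lymphocyte and neutrophil markers 0 on every array. Macrophage markers differed between the arrays. Of 26 such genes 19, 24, 15 and 22 lay above the floor in the same order, and their levels summed on the linear scale to 6942, 60018, 3652 and 22882. In that order Csf1r, the receptor that macrophages need to survive, stood at 7.30, 11.27, 7.31 and 10.56. The leukocyte phosphatase gene Ptprc stood at 6.02, 9.77, 6.08 and 9.40, and the macrophage surface receptor gene Adgre1 at 9.05, 11.16, 5.69 and 7.71. Mrc1, Cd163, Clec7a and Aif1 were under the floor in MSC with bFGF. The summed macrophage level was thus highest in osteoblasts and next in MSC with bFGF, though not every marker kept this order. MSC with bFGF lay below osteoblasts for 24 of the 26 genes and above ES cells for 22. Of all 19938 genes 10951 lay below osteoblasts and 10127 above ES cells on that array. Among the macrophage markers, Adgre1 and Mrc1 were higher in ES cells than in MSC with bFGF. The summed level of the 41 interferon response genes was 7640, 18888, 8894 and 11720 in the same order of arrays. It also had osteoblasts first and MSC with bFGF second, but ES cells lay below MSC without bFGF, unlike the macrophage sum. Such sums weigh the brightest genes most, here Ifitm3 at 12.27 in osteoblasts. The part of macrophage transcripts in the interferon sum was not tested. In such bulk RNA, more cells of a type and more RNA per cell cannot be told apart.

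Promoter sequences were examined for the response element. RefSeq windows on GRCm38.p6, each of 300 bases with 250 before the transcription start, were found for 34 of the 44 listed genes. They were searched on both strands for an ISRE-like pattern, GAAANNGAAA, where N is any base. It occurred in 15 of these 34 genes (44.1%), against 3.99% of the 27025 genes with a window. A second pattern, TTCNNNGAA, which has the letters of the gamma-activated sequence of the interferon gamma response, occurred in 12 of the 34 (35.3%), against 9.55% of all genes. A match is a description of letters and not evidence of binding, and the patterns overlap by a few bases in Bst2 and Ifitm3. The promoters of Ifih1, Oas3 and Irf7 are shown whole because these genes had the largest differences between the MSC arrays, and stretches of Ifit1, Ifit3, Gbp3, Bst2 and Ifitm3 because they carry 2 ISRE-like matches each. Capitals mark ISRE-like matches, and each sequence runs 5′ to 3′ along the gene's own strand.
Ifih1, chr2:62646206-62646505, minus strand: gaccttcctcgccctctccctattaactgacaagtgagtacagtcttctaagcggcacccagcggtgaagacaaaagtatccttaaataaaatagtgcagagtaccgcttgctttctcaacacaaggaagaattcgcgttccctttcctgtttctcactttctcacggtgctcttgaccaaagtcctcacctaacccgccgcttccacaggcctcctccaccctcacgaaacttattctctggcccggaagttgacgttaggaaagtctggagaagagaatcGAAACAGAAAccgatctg
Oas3, chr5:120777610-120777909, minus strand: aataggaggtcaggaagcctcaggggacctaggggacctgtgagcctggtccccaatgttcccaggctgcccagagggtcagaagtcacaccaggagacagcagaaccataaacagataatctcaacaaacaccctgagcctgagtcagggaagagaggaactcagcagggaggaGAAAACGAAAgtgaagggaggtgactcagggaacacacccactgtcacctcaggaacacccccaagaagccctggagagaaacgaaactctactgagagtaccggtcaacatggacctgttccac
Irf7, chr7:141266375-141266674, minus strand: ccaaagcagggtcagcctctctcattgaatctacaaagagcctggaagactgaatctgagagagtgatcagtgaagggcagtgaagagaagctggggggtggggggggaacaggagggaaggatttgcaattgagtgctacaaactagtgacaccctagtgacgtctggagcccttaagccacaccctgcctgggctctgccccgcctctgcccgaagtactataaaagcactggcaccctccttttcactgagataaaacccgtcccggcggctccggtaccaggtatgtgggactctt
Ifit1, chr19:34640755-34640843, plus strand: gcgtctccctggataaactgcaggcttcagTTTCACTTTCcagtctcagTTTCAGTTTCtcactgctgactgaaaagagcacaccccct
Ifit3, chr19:34583343-34583446, plus strand: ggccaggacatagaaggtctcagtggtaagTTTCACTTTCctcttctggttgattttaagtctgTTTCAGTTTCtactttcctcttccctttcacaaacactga
Gbp3, chr3:142559969-142560044, plus strand: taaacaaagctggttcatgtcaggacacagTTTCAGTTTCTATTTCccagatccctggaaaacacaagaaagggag
Bst2, chr8:71537557-71537632, minus strand: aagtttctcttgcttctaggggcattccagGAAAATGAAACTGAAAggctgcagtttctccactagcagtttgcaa
Ifitm3, chr7:141010695-141010772, minus strand: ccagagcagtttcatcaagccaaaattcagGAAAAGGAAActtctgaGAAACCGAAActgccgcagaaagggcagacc

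Counting the first transcribed base as 0, the matches of Ifit1 began at -104 and -85 and those of Ifit3 at -156 and -122, and both genes carry TTTCACTTTC followed by TTTCAGTTTC. In Bst2 the matches overlapped, GAAAATGAAA at -130 and GAAACTGAAA at -124, and in Gbp3 they began at -45 and -39. The match of Oas3, GAAAACGAAA, began at -75, while that of Ifih1, GAAACAGAAA, lay after the start at 32. Both matches of Ifitm3 also lay after the start, at 2 and 19. Isg15, which had no expression value, held 3 matches and is not printed. The window of Irf7 held no match to these letters.

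Most interferon response genes were higher in MSC with bFGF than without, usually by less than 2-fold. Of the 41 measured genes 35 lay above 0, against 42.9% of all genes, and the median difference was 0.51 (1.42-fold) beside -0.06 over all 19938 genes. Of the 41 genes 33 entered the count, of which 6 were 2-fold or more higher and 0 lower, where 4.09% of all genes above the floor were higher and 0.467% lower. With no floor 7 of 41 (17.1%) were higher, against 2.61% of all genes. The 6 genes were the RNA sensor Ifih1, the transcription factors Irf7 and Irf5, the oligoadenylate synthetase family genes Oas3 and Oasl1, and the ADP-ribosyltransferase gene Parp14. In this comparison the macrophage list had a median difference of 2.76, with 22 of its 26 genes past 2-fold, and their part in the interferon genes' difference was not tested. With the floor raised to the 75th percentile of each array, Irf7 alone was counted (3.29% of all genes so filtered). The rest of the 6 fell under that floor, 8.10 in MSC with bFGF, and were no longer eligible. Fewer genes were thus eligible, so this count is not a share of the 33 above. Genes that stayed eligible had a median difference of 0.46. At a 1.5-fold threshold and the first floor, 15 genes were higher (7.45% of all genes). By role the median difference was 0.86 for sensors, 0.82 for regulators, 0.35 for effectors, 0.26 for transcription factors and 0.17 for the receptor chains. These medians rest on 4, 6, 22, 7 and 2 genes and include genes under the floor. Over genes above it, the median was 1.18 for sensors (2 genes) and 0.44 for effectors (16 genes), and unchanged for the other roles. Of the 41 genes 12 differed by no more than the 0.29 SD between probe sets of a gene.

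**Figure D1:**
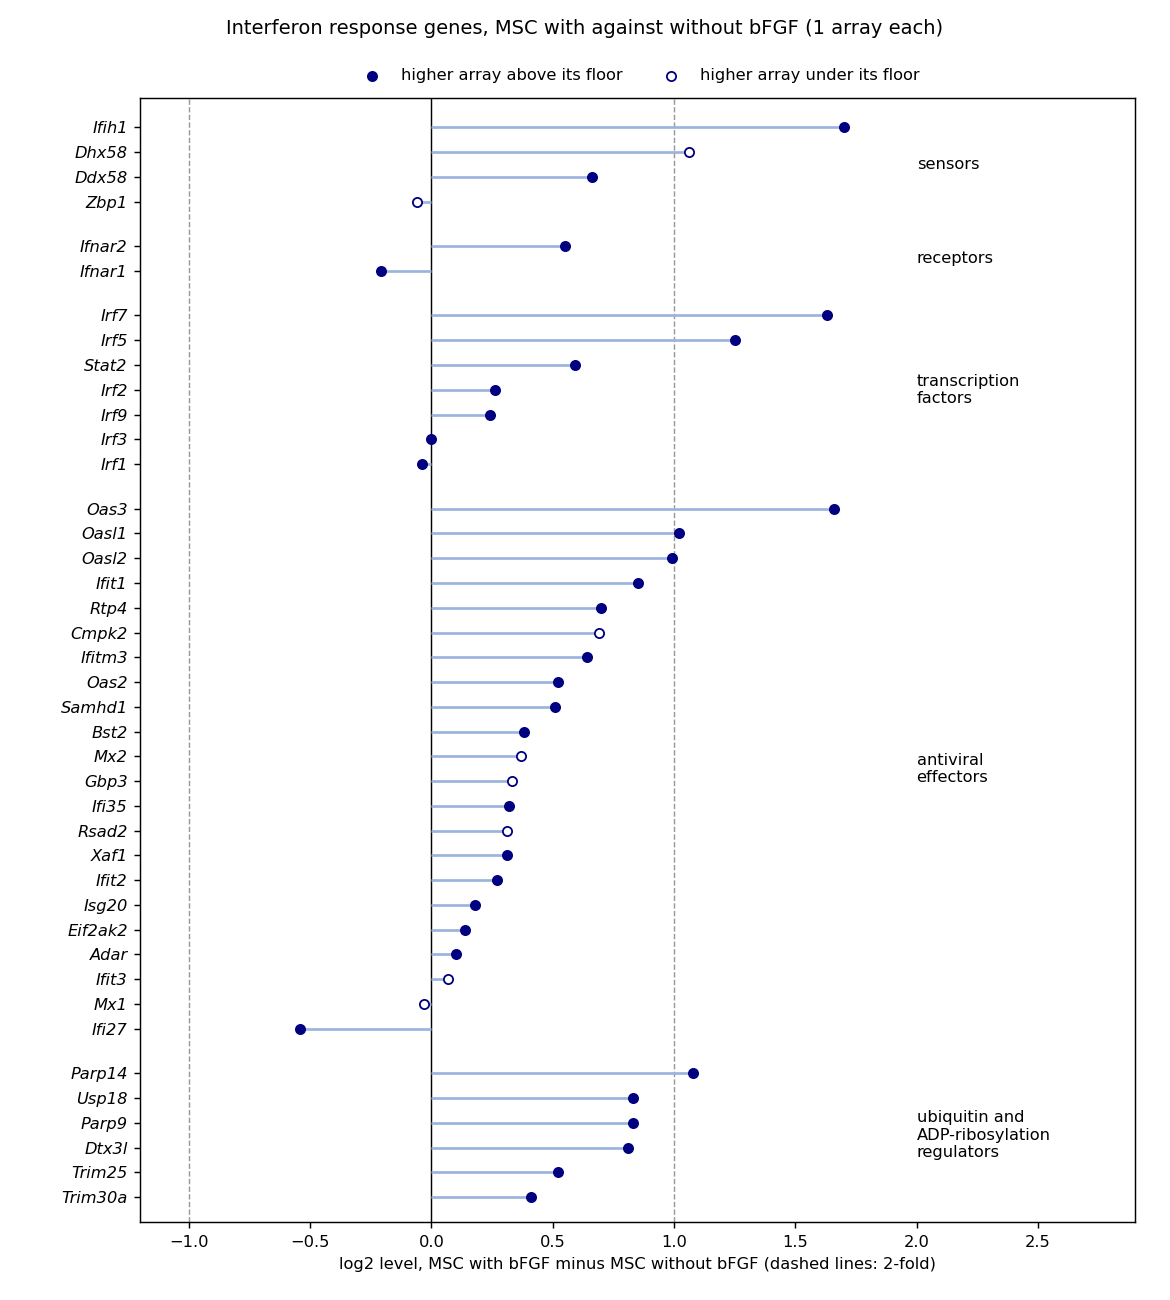
Difference in log2 level, MSC with bFGF minus MSC without bFGF, for each of the 41 measured genes, grouped by role, with 1 array per group and no error bar. Filled points had their higher array above its floor, open points did not, and dashed lines mark 2-fold. Of the 41 points 35 lie right of 0, and Ifih1, Oas3 and Irf7 lie farthest.

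The sensors differed among themselves. Ifih1 encodes MDA5, the helicase that binds long double-stranded RNA. It stood at 6.08 in ES cells, 7.64 in osteoblasts, 5.10 in MSC without bFGF and 6.80 in MSC with bFGF, a difference of 1.70 (3.25-fold) between the MSC arrays. It was under the floor in ES cells and in MSC without bFGF, so the size of that difference depends on background. Ddx58 encodes RIG-I, which binds short RNA with a triphosphate end, and stood at 7.41, 9.11, 7.52 and 8.18 in the same order of arrays, above the floor on all 4. Its difference between the MSC arrays was 0.66. Dhx58 encodes LGP2, a helicase that tunes the other pair and lacks a signalling domain, and stood at 4.97, 7.43, 5.00 and 6.06. Its difference of 1.06 was not counted, since both MSC arrays were under the floor. The 3 helicase genes thus had the same order, osteoblasts first and MSC with bFGF second. Zbp1, a sensor of Z-form nucleic acid that can start cell death, did not share it and stood at 6.31, 7.19, 5.81 and 5.75, above the floor only in osteoblasts.

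The receptor chains of type I interferon were above the floor on every array. Ifnar1 stood at 8.34, 9.01, 8.10 and 7.90, and differed by -0.21 between the MSC arrays. Ifnar2, which binds interferon more tightly, stood at 7.04, 8.80, 7.98 and 8.53, with a difference of 0.55. Osteoblasts had the highest level of both chains, and the ES cell array had the lowest level of Ifnar2.

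Among the transcription factors Irf7 and Irf5 stood apart from the rest. Irf7, the factor that amplifies interferon production and is itself an interferon target, stood at 7.18 in ES cells, 9.20 in osteoblasts, 6.90 in MSC without bFGF and 8.53 in MSC with bFGF. All 4 levels were above the floor, and the difference between the MSC arrays was 1.63 (3.10-fold). Irf5, a factor used by macrophages and dendritic cells downstream of Toll-like receptors, stood at 6.68, 8.18, 6.60 and 7.85, a difference of 1.25 (2.38-fold). For both genes MSC with bFGF lay nearer to osteoblasts than to MSC without bFGF, at -0.67 and -0.33 from osteoblasts.

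The factors that make up or accompany the core signalling complex differed less. Stat2 stood at 7.29, 8.38, 6.96 and 7.55, with a difference of 0.59 between the MSC arrays. Irf9, its DNA-binding partner, stood at 7.47, 8.77, 7.72 and 7.96, with a difference of 0.24. Both were highest in osteoblasts. Irf3, which is present at rest and switched on by phosphorylation, stood at 7.08, 7.58, 7.53 and 7.52. Irf2, which restrains interferon targets, was highest in MSC with bFGF at 6.94 and ranged over 0.63. Irf1, a target of interferon gamma, had a different order, with 8.56 in ES cells, 8.23 in osteoblasts, 7.04 in MSC without bFGF and 7.00 in MSC with bFGF. Its second probe set stood between 5.64 and 6.01 on all arrays, under the floor, and did not show that order: MSC with bFGF minus ES cells was -1.56 by the first probe set and -0.13 by the second.

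The antiviral effectors were the largest group, with 22 of 25 measured. Between the MSC arrays 20 lay above 0 and 2 below, with a median of 0.35. Oas3, an oligoadenylate synthetase gene of the family whose messenger activates RNase L, had the largest difference of this group. It stood at 4.98, 7.08, 4.90 and 6.56, a difference of 1.66 (3.16-fold) from a level under the floor. Oas2, another synthetase gene, stood at 5.45, 7.09, 5.98 and 6.50, a difference of 0.52. Oasl1, a relative that holds back translation of Irf7, stood at 6.62, 6.54, 6.39 and 7.41 and was highest in MSC with bFGF, by 1.02 over MSC without bFGF and by 0.87 over osteoblasts. The first of these was 0.93, under 2-fold, when quantile normalization was repeated. Oasl2 stood at 7.50, 8.71, 6.46 and 7.44, with a difference of 0.99, just under 2-fold. Thus Oas2, Oas3 and Oasl2 were highest in osteoblasts while Oasl1 was not.

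The Ifit genes, whose proteins bind foreign RNA ends and stop their translation, did not keep together. Ifit1 stood at 5.90, 8.33, 6.10 and 6.95. Ifit2 stood at 6.42, 7.60, 7.60 and 7.87. Ifit3 stood at 5.73, 8.20, 5.54 and 5.61. Osteoblasts thus held the highest level of Ifit1 and Ifit3 but not of Ifit2. The MSC difference was 0.85 for Ifit1, 0.27 for Ifit2 and 0.07 for Ifit3, while Ifit1 and Ifit3 carry the same pair of ISRE-like matches. Against osteoblasts Ifit3 had the lowest values of the 41 genes in both MSC arrays, -2.59 with and -2.66 without bFGF, while Ifit2 differed by 0.27 and 0.00. Ifit2 lay above the floor in both MSC arrays and Ifit3 in neither. A close copy of Ifit3 lies in the same cluster, so its value may be shared.

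Bst2, also called tetherin, which holds budding virus at the cell surface, stood at 8.34, 10.58, 9.02 and 9.39. Ifitm3, which blocks fusion of virus with endosomes, stood at 10.91, 12.27, 10.73 and 11.37. Rsad2, also called viperin, a radical enzyme that makes a chain-terminating nucleotide, stood at 5.82, 7.35, 5.96 and 6.27. All 3 were thus highest in osteoblasts. So was Cmpk2, the genomic neighbour of Rsad2 and a mitochondrial nucleotide kinase gene, at 5.61, 6.36, 4.78 and 5.46. Between the MSC arrays the differences were 0.38 for Bst2, 0.64 for Ifitm3, 0.31 for Rsad2 and 0.69 for Cmpk2, and both MSC arrays were under the floor for Rsad2 and Cmpk2. Rtp4, a chaperone of receptors that also binds RNA, stood at 6.45, 9.06, 7.08 and 7.79, with a difference of 0.70.

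Eif2ak2 encodes PKR, the kinase that stops translation on binding double-stranded RNA, and stood at 7.10, 8.33, 7.04 and 7.19. Adar, which edits double-stranded RNA and keeps the sensors from answering the cell's own RNA, stood at 8.13, 8.55, 8.27 and 8.37, the narrowest range of the 41 genes at 0.42. Samhd1, which depletes deoxynucleotides, stood at 8.22, 8.68, 7.19 and 7.70, a difference of 0.51. Ifi35, which pairs with Nmi, stood at 6.95, 8.38, 7.36 and 7.69, and Xaf1, an apoptosis factor, at 5.44, 6.95, 6.53 and 6.85. All 5 of these genes were highest in osteoblasts, and between the MSC arrays Eif2ak2 differed by 0.14 and Adar by 0.10.

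Several effectors departed from the common order. Isg20, an exonuclease for single-stranded RNA, stood at 6.66 in ES cells, 7.02 in osteoblasts, 8.26 in MSC without bFGF and 8.44 in MSC with bFGF, and was the only one of the 41 genes 2-fold or more above osteoblasts in the MSC arrays, by 1.24 without and 1.42 with bFGF. Ifi27, a small membrane protein with close family members that could share its signal, stood at 8.25, 10.47, 10.59 and 10.05 and had the most negative MSC difference of the 41 genes, -0.54. Gbp3, one of the guanylate-binding proteins, a family of the interferon gamma response that attacks vacuoles of parasites, stood at 8.23, 8.20, 5.90 and 6.22, so that both MSC arrays were under the floor and lower than ES cells and osteoblasts by between -2.34 and -1.97. Mx1 and Mx2, dynamin-like proteins that block viral nucleocapsids, stood between 3.70 and 5.57 on all arrays. As background, C57BL/6 mice carry a large deletion in Mx1.

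The regulators all lay above 0 between the MSC arrays, with a median of 0.82 and a range of 0.41 to 1.08. Parp14, Parp9 and Dtx3l lie side by side in the genome and their proteins attach ADP-ribose or ubiquitin. Parp14 stood at 7.12 in ES cells, 0.88 above that in osteoblasts, 6.12 in MSC without bFGF and 7.20 in MSC with bFGF, a difference of 1.08 between the MSC arrays. Parp9 stood at 8.20, 8.29, 6.91 and 7.74, a difference of 0.83. Dtx3l stood at 7.32, 7.63, 6.20 and 7.01, a difference of 0.81. All 3 had their lowest level in MSC without bFGF and their highest in osteoblasts, and Parp14 and Dtx3l were under the floor in MSC without bFGF. Usp18, the protease that removes ISG15 from proteins and shuts off the receptor, stood at 6.81, 8.68, 7.88 and 8.71, level with osteoblasts in MSC with bFGF. Trim25, a ubiquitin ligase linked to RIG-I signalling, stood at 8.01, 7.90, 8.02 and 8.54, and Trim30a at 6.20, 9.81, 9.06 and 9.47. Trim30a belongs to a cluster of close relatives and had the widest range of the 41 genes, 3.61, between ES cells and osteoblasts.

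**Figure D2:**
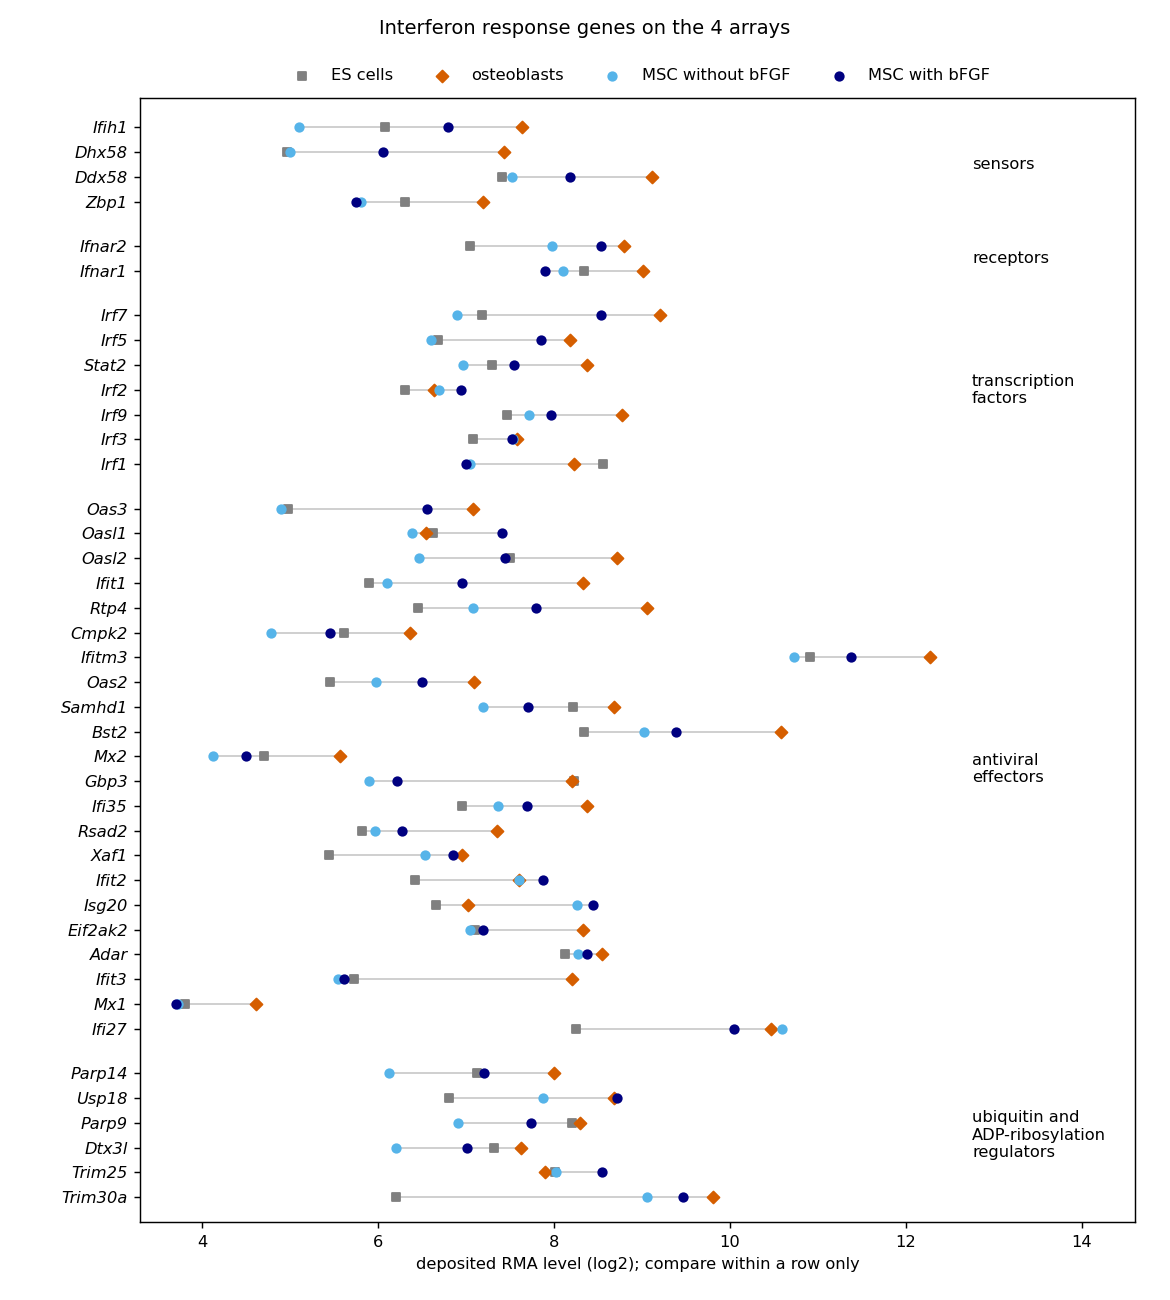
Deposited log2 level of each of the 41 measured genes on each of the 4 arrays, 1 point per array with no error bar, grouped by role and sorted by the difference between the MSC arrays. Points compare within a row only. The osteoblast point is the rightmost in 32 of 41 rows, and Isg20, Irf1 and Oasl1 are among the exceptions.

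Over the 38 genes above the floor on at least 1 array, osteoblasts had the highest level for 29, against 27.5% of all genes so filtered. MSC with bFGF had the highest level for 6 (background 19.0%), namely Irf2, Ifit2, Isg20, Usp18, Oasl1 and Trim25. ES cells had it for Irf1 and Gbp3 (27.0%) and MSC without bFGF for Ifi27 (26.5%). The lowest level was in ES cells for 19 of the 38 (background 33.1%), in MSC without bFGF for 15 (20.4%), in MSC with bFGF for Irf1, Zbp1 and Ifnar1 (16.3%) and in osteoblasts for Trim25 (30.2%). For 27 of the 38 MSC with bFGF lay above MSC without bFGF and below osteoblasts, as for 22.4% of all genes. Dhx58, Ifit1, Ifit3, Oasl2, Rsad2, Bst2, Rtp4 and Eif2ak2, 8 of the 38, exceeded each of the other arrays by at least 2-fold in osteoblasts, against 4.49% of all genes. However, Dhx58, Ifit3, Rsad2 and Zbp1 passed the floor only in osteoblasts, so the filter largely set their place as highest there. The shares of all genes carry the same filter. Differences as small as those among Irf2 or Trim25 levels lie near the spread between probe sets, so neighbours in these orders may not differ.

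The osteoblast array differed from the ES cell array by more than the MSC arrays did from each other. At 2-fold or more, 24 of 38 genes above the floor were higher in osteoblasts and 0 lower, where 12.3% and 8.83% of all genes were. The median was 1.22 beside 0.07 over all genes. Among the 24 were Trim30a at 3.61, Rtp4 at 2.61, Dhx58 and Ifit3 at 2.46 each, Ifit1 at 2.43, Bst2 at 2.24 and Ifi27 at 2.22. By role, 3 of 4 sensors, 4 of 7 transcription factors, 14 of 22 effectors, 2 of 6 regulators and 1 of 2 receptor chains were counted. Irf1, Gbp3, Oasl1 and Trim25 lay below 0, between -0.34 and -0.04. The macrophage list was higher by a median of 3.33 and the stromal list by 1.38 in the same comparison, and their part in it was not tested.

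Both MSC arrays were lower than osteoblasts, MSC without bFGF more so. Without bFGF 25 of 38 genes above the floor were 2-fold or more lower and 1 higher, against 13.3% and 8.17% of all genes, with a median of -1.38. With bFGF 12 of 38 were lower and 1 higher, against 9.71% and 7.50%, with a median of -0.81, and at 1.5-fold 23 were lower and 3 higher, against 18.4% and 19.9%. The medians over all genes were 0.03 and -0.07. Sensors differed by medians of -2.01 without and -1.15 with bFGF, effectors by -1.42 and -0.90, and regulators by -1.09 and -0.45. Both comparisons use the same osteoblast array. The macrophage list lay at -3.88 and -1.24 in them, and the stromal list at -2.10 and -1.84, and their part in the result was not tested.

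Against ES cells the MSC arrays parted. With bFGF 14 of 34 genes above the floor were 2-fold or more higher and 2 lower, against 11.3% and 10.6% of all genes, with a median of 0.53 beside 0.01 over all genes. Without bFGF 6 of 30 were higher and 7 lower, against 10.4% and 11.8%, with a median of -0.06 beside 0.08, so that these genes differed in both directions. With the floor at the 75th percentile 7 were higher with bFGF, against 13.1% of all genes, and 3 were higher and 4 lower without it, against 13.1% and 11.4%. That floor left fewer of these genes eligible, so the counts are not shares of the 34 and 30 above. Trim30a had the largest positive values, 3.27 and 2.86 with and without bFGF, followed without bFGF by Ifi27 at 2.34. With bFGF the next were Usp18 at 1.91, Ifi27 at 1.80, Isg20 at 1.78 and Oas3 at 1.58. Gbp3, at -2.01 and -2.34, and Irf1, at -1.56 and -1.53, had the most negative values in both comparisons, although for Irf1 the mean of its probe sets gave -0.85 and -0.95. These share the ES cell array, in which Adgre1 and other macrophage markers had signal: 19 of 26 lay above the floor, and the macrophage list differed by 1.99 with and -0.47 without bFGF, its part in these differences not being tested.

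**Figure D3:**
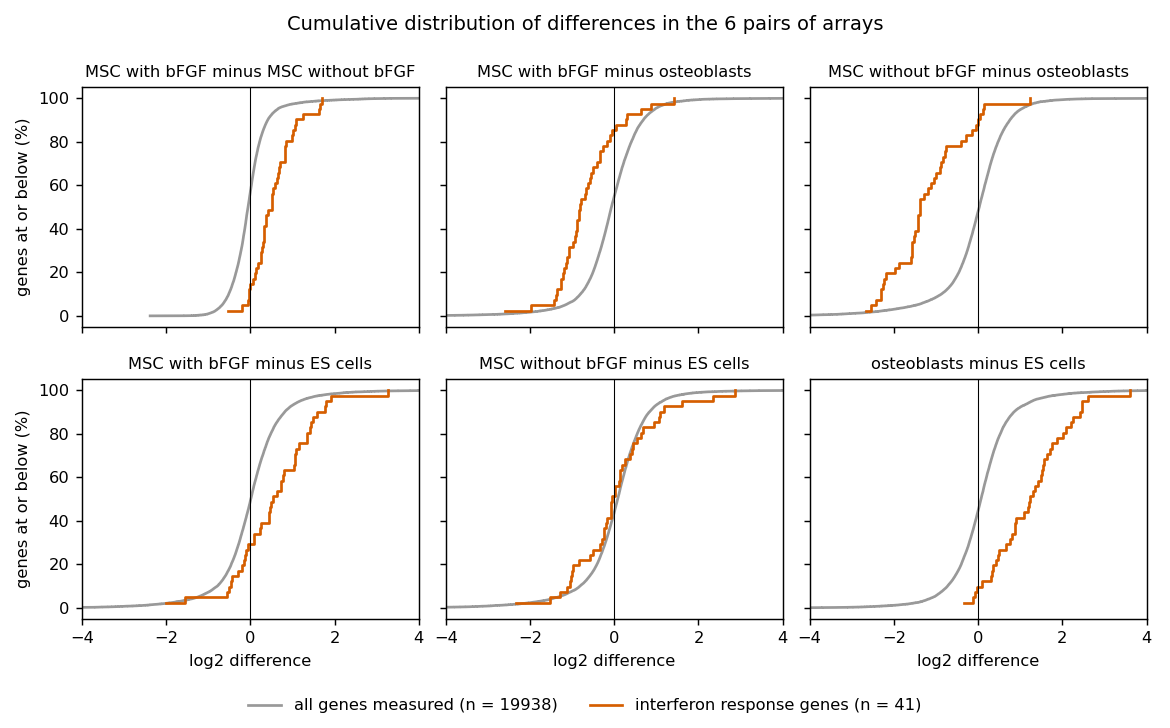
Cumulative share of genes (percent) against log2 difference in the 6 pairs of arrays, for the 41 interferon response genes (orange) and all 19938 genes (grey), drawn from -4 to 4. The orange curve lies right of the grey for osteoblasts minus ES cells (medians 1.22 and 0.07), left of it for MSC minus osteoblasts, and close to it for MSC without bFGF minus ES cells (-0.06 and 0.08).

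Genes with and without ISRE-like letters had similar differences between the MSC arrays. The 13 measured genes with an ISRE-like match had a median of 0.41 and a range of 0.07 to 1.70, and the 18 with a window and no match had 0.42 and -0.21 to 1.63. For osteoblasts minus ES cells the medians were 1.55 and 0.71, with 11 of 13 and 8 of 18 genes at 2-fold or more, against 7.74% of all genes with no floor. Of the promoters printed whole, those of Ifih1 and Oas3 held a match and that of Irf7 did not, beside MSC differences of 1.70, 1.66 and 1.63. These genes were picked for their large MSC differences, so their values cannot compare genes with and without a match.

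Genes of the interferon pathway outside the list were followed through a further list of 86 symbols, 70 of them measured. Between the MSC arrays 6 were 2-fold or more higher and 0 lower among 50 above the floor, against 4.09% and 0.467% of all genes, with a median of 0.24 over the 70 beside -0.06 over all genes. Tlr7, an endosomal sensor of single-stranded RNA used by immune cells, stood at 4.08, 8.85, 4.11 and 7.08, a difference of 2.97. The myeloid factor Irf8 stood at 5.92, 9.07, 6.67 and 8.66, a difference of 1.99. The others were the galectin Lgals9 by 1.62, the nuclear body gene Sp100 and the DNA sensor family gene Ifi203 by 1.30 each, and the secreted glycoprotein Lgals3bp by 1.02. All of these except Ifi203 were highest in osteoblasts. Of the signalling genes, Jak1 at 0.21, Tyk2 at 0.11, Mavs at 0.27 and Tbk1 at -0.09 differed little between the MSC arrays. Others differed more. The 7 receptor and kinase genes of this list, Jak1 and Tyk2 among them, spanned -0.33 to 1.00. Its 11 sensors and adaptors, with Mavs, Tbk1 and Tlr7, spanned -0.09 to 2.97. Interferon genes had low levels: of 11 measured, 3, 2, 3 and 3 lay above the floor in ES cells, osteoblasts, MSC without and MSC with bFGF, and 0 differed by 2-fold in any pair. Ifnb1 stood at 4.78, 4.77, 4.23 and 4.12, under the floor on all arrays, where low transcript and weak probes cannot be told apart.

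**Figure D4:**
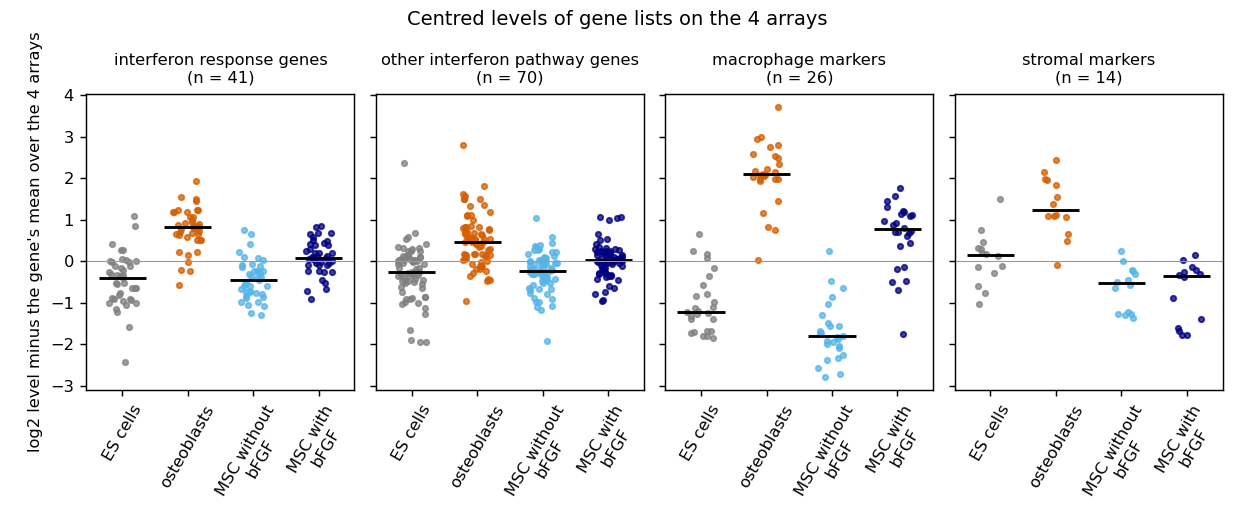
Log2 level of each gene minus its mean over the 4 arrays, for the 41 interferon response genes, 70 other interferon pathway genes, 26 macrophage markers and 14 stromal markers. Each point is a gene and each bar the list's median on that array, with no error bar. Interferon response genes had medians of -0.41, 0.84, -0.45 and 0.09 in ES cells, osteoblasts, MSC without and MSC with bFGF, and macrophage markers -1.21, 2.11, -1.81 and 0.77.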

How the data were processed

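RNA of 4 cultures was measured on Affymetrix gene arrays, 1 per group. Per the submitters' processing notes, the authors made the values with Affymetrix Expression Console and RMA, which corrects background, makes array distributions alike and summarises probes. The deposited levels were taken as log2 from their range, 1.40 to 14.28. RMA hides a general shift in RNA per cell and compresses low levels. Versions and build were not given in the sources used here. The platform table gave 1 symbol to 21789 of 35556 probe sets. For all 41 measured genes the Entrez identifier had the same symbol in RefSeq (GRCm38.p6), which also gave the promoters. Differences, floors and counts were computed with Python 3.11.15, numpy 2.4.6, pandas 2.3.3 and statsmodels 0.14.6, and the counting was tested on simulated data. All members of the list could be named, with other pathway genes past 2-fold between the MSC arrays, a set of signalling genes (Jak1, Tyk2, Ifnb1, Mavs, Tbk1; another that the rule names is not reported here) and 3 macrophage markers (Csf1r, Ptprc, Adgre1). Itgax, Mrc1, Cd163, Clec7a, Aif1, the osteoblast markers and the genes of the closing section were named after their values were seen. Members and lists were chosen with earlier results of these data known. Alternatives tried were the mean of probe sets, no floor, a floor at the 75th percentile, a 1.5-fold threshold, centring, removal of a loess curve (span 0.3) and repeated quantile normalization.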

Additional observations from a re-analysis of the deposited data

How the results depend on the processing

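Of 120 alternative values of the 18 counts and medians, 8 moved, by more than 1.5 times for a count or by 0.29 or more for a median. With a floor at the 75th percentile, the genes 2-fold or more higher in MSC with than without bFGF went from 6 to 1 (Irf7), those higher in MSC with bFGF than in ES cells from 14 to 7, and for MSC without bFGF minus ES cells 6 higher and 7 lower became 3 and 4. That floor also left fewer genes eligible, 5232 and not 10483 of all genes between the MSC arrays. At 1.5-fold, 15 genes were higher with than without bFGF, and MSC with bFGF minus osteoblasts gave 3 higher and 23 lower. With the mean of probe sets, 1 gene and not 2 was lower in MSC with bFGF than in ES cells, since Irf1 was then at -0.85. Medians moved by less than 0.29 under every alternative run, and of 532 alternative values of single genes 0 reversed a counted difference and 4 moved by 0.29 or more, all of Irf1 with the mean of probe sets. Some genes near 2-fold lost their call: Oasl1 between the MSC arrays went from 1.02 to 0.93 when quantile normalization was repeated, and Bst2 in MSC with bFGF minus ES cells from 1.06 to between 0.86 and 0.95. Between the MSC arrays the signs of Mx1, Zbp1 and Irf1, all within 0.06 of 0, turned under at least 1 alternative. No paired analysis was possible because each group has 1 array, and for the same reason no replicate could be left out. The number of arrays and the levels near background limit these values.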

Other observations

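A few pathway genes outside the list, chosen after their values were seen, had orders of their own. Ifitm1, a membrane protein related to Ifitm3, stood at 10.05 in ES cells against 6.72 in osteoblasts, 7.01 in MSC without bFGF and 6.89 in MSC with bFGF. Aim2, a sensor of DNA in the cytoplasm that starts the inflammasome, stood at 8.30 and 8.32 in MSC without and with bFGF, against 7.07 in osteoblasts and 5.31 in ES cells. Like Isg20, it was higher in both MSC arrays than in osteoblasts, by 1.23 and 1.25, and differed by 0.03 between the MSC arrays. Irgm1, a GTPase of the interferon gamma response, was lower than in osteoblasts by 2-fold or more in both MSC arrays, at -2.62 without and -2.16 with bFGF, as Gbp3 was at -2.30 and -1.97. The chemokine gene Cxcl10 stood at 7.22, 9.36, 6.39 and 7.25 in ES cells, osteoblasts, MSC without and MSC with bFGF.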
